A study of Homo sapiens with 14 samples.

Results

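The genes described here are 10 inflammatory chemokines and cytokines, CXCL1, CXCL2, CXCL3, CXCL5, CXCL8, CCL20, IL6, IL1A, IL1B and LIF. They were picked by symbol from a fixed list, and all 10 were found among the 24199 features of the DU145 table and among the 44591 genes of the LNCaP table. DU145 is an androgen-insensitive prostate cancer cell line. RNA-seq was available for 3 DU145 libraries with a non-target shRNA (shCON) and 3 with a shRNA against PAX6 (shPAX6), both delivered by lentivirus to make stable lines. The methods name a pair of PAX6 hairpins, and which of them these libraries carried was not stated in the sources used here. LNCaP is an androgen-sensitive prostate cancer cell line. It gave 1 library of untreated control cells (parental) and 1 of LNCaP-ENZ cells, which were kept in 20 µM enzalutamide (an antiandrogen drug) for 30 days according to the series text. No source says whether libraries of one group came from separate cultures, so p-values measure the spread between these libraries, which may be technical. The 6 ATAC-seq samples were not analysed here.

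Chemokines are small secreted proteins that draw white blood cells along a gradient. CXCL1, CXCL2, CXCL3, CXCL5 and CXCL8 (interleukin 8) share the ELR motif and attract neutrophils through CXCR1 and CXCR2, while CCL20 attracts dendritic cells and lymphocytes that carry CCR6. IL-6 and LIF are cytokines of the gp130 family, which signal through IL6ST to STAT3, and IL-1α and IL-1β are alarm cytokines that act through IL1R1 and IL1RAP. Transcription of many of these genes is induced by NF-κB, and their mRNAs are short-lived because of AU-rich elements in the 3′ UTR. In prostate cancer, IL-6 and CXCL8 have been studied as factors that tumor cells secrete themselves.

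The promoters of the chemokine genes are shown first, because the members differ in how alike they are. CXCL1, CXCL2 and CXCL3 are recent gene copies. Over the 300 bases around the start (250 before and 50 after), the CXCL1 and CXCL3 promoters were identical at 82.5% of aligned positions, CXCL2 and CXCL3 at 73.8% and CXCL1 and CXCL2 at 72.1%. CXCL1 and CXCL8 were identical at 42.6%, within the range of members of different families, such as CXCL1 and IL1A (41.8%) or CCL20 and IL6 (49.2%). Aligned positions included gaps. The lines that follow give the 110 bases before the start of 7 genes, 5′ to 3′ on the strand of the gene, from RefSeq on GRCh38.p14, with capitals for a match to the κB-like letters GGNNTTTCC on either strand.
CXCL1 promoter, chr4:73869283-73869392, plus strand: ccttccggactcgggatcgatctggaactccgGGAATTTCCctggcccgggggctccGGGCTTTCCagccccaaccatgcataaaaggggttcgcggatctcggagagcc
CXCL2 promoter, chr4:74099196-74099305, minus strand: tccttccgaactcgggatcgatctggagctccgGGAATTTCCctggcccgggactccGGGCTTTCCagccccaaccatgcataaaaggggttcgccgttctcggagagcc
CXCL3 promoter, chr4:74038690-74038799, minus strand: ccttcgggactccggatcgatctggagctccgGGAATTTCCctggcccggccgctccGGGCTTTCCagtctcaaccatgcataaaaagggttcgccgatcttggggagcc
CXCL5 promoter, chr4:73998678-73998787, minus strand: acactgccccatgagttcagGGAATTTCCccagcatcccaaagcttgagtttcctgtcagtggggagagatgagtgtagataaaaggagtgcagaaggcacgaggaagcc
CXCL8 promoter, chr4:73740459-73740568, plus strand: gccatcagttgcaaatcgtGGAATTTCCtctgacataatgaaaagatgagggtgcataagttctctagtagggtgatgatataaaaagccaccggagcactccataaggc
IL6 promoter, chr7:22727090-22727199, plus strand: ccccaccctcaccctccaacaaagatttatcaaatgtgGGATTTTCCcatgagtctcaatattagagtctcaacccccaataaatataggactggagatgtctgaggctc
CCL20 promoter, chr2:227813732-227813841, plus strand: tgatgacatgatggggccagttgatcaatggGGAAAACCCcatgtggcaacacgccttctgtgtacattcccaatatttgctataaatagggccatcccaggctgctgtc

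The κB-like letters, which were chosen after these promoters had been read, were present in 7 of the 9 members with a promoter in the RefSeq table, against 6.26% of 35116 promoters of the same length. CXCL1, CXCL2 and CXCL3 each held a pair of matches, at nearly the same distance before the start (78, 77 and 78 bases for the first and 53 bases for the second). In CXCL8 the match lay 91 bases, in CXCL5 90 bases and in IL6 72 bases before the start. In CCL20 it lay 79 bases before the start and on the opposite strand. IL1A and IL1B held none, and the promoter of LIF was not analysed. The AP-1-like letters TGANTCA, searched on both strands, were present in 2 of the 9 (CXCL8 and IL1A) against 7.71% of all promoters. TATAAA, likewise searched on both strands, was present in 3 (CCL20, CXCL8 and IL1A) against 11.5%. A match of letters is a description and not a binding site.

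ATTTA pentamers, the core of AU-rich elements, were counted in the 3′ UTR of each mRNA. The members held between 3 (CCL20) and 11 (CXCL5) copies. Per kilobase the count ranged from 2.19 in LIF to 14.02 in IL6, with 13.9 in CXCL2 and 10.4 in CXCL3. The median of the 10 was 7.46 per kilobase, against 1.88 over 14477 protein-coding genes with a 3′ UTR of at least 400 bases, of which 1.40% reached the median of the members. All 10 lay above the median of those genes, but 43.3% of them reached the value of LIF.

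In the GRCh37 annotation, the build the authors aligned to, the 5 ELR chemokine genes among the members lay within 359 kb of chromosome 4 (chr4:74606236-74964913). The same stretch held CXCL6, PF4V1, PF4 and PPBP. The other members were CCL20 (chr2:228670455-228682280), IL1A (chr2:113531502-113542070), IL1B (chr2:113587328-113594393), IL6 (chr7:22765503-22771621) and LIF (chr22:30636442-30642748). Neighbours within the cluster differed greatly in DU145 cells. FPKM is a read value scaled to transcript length and library size, so it can be set side by side between genes. Mean FPKM in shCON was 52.5 for CXCL8, 28.2 for CXCL2, 15.5 for CXCL1, 3.20 for CXCL3, 2.18 for CXCL5 and 1.41 for CXCL6, and the platelet chemokine genes PPBP and PF4V1 were listed at 0 in all 6 libraries. PF4, another platelet chemokine, reached at most 0.267. Since CXCL1, CXCL2 and CXCL3 have near-identical stretches, reads could have been split between them, and their values are uncertain to that extent.

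**Figure D1:**
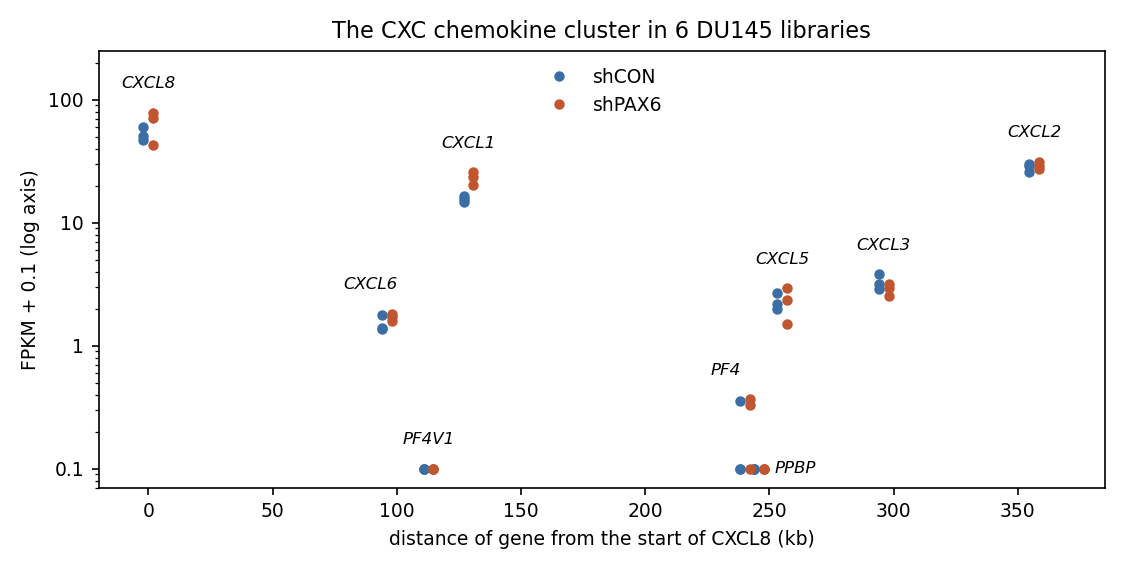
FPKM + 0.1 (log axis) of the 9 genes of the CXC chemokine cluster against the distance of each gene from the start of CXCL8 in kilobases, with 1 point per DU145 library (shCON left, shPAX6 right of each gene). CXCL8, CXCL1 and CXCL2 stand above 10 in all 6 libraries, while CXCL3, CXCL5 and CXCL6 stay between 1 and 4 and PPBP and PF4V1 are at 0.

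Before the members are compared, the libraries themselves differed. The shPAX6 library 1 held the lowest value of the 6 libraries for 48.9% of 13574 tested features, shPAX6 library 2 for 24.4% and the other libraries for 4.72% to 9.82% each. The log2 fold change (shPAX6 minus shCON) fell with the GC content of the transcript (Spearman rho = -0.36 over 12009 genes, which are not independent), and rho was 0.023 after a correction of each library. By limma with Benjamini-Hochberg adjustment, 163 of the 13574 features passed, of which 85.3% were lower in shPAX6. This share was 68.6% after quantile normalization, 72% after median centring and 55% after the GC correction. The median log2 fold change of all features was -0.12, and it moved to 0.014, 0.058 and 0.023 under the same alternatives. PAX6 itself was at 0.839, 1.23 and 1.57 FPKM in shCON and at 0.0153, 0.274 and 0.0778 in shPAX6, so the groups did not overlap and the direction followed the labels (log2 fold change -2.69 ± 0.49 SE, limma adjusted p = 0.0539). Limma's adjusted p for PAX6 was 0.022 without shPAX6 library 1 and 0.0105 without library 2, and 0.191, 0.288 and 0.220 without shCON library 1, shCON library 2 or shPAX6 library 3. Its log2 fold change was -0.97 with a pseudocount of 1 and -3.79 with 0.01. The prostate luminal markers KLK2, KLK3 and TMPRSS2 were at or near 0 in DU145, while the epithelial keratins KRT8 and KRT18 were at 492 FPKM or more in each library with overlap between the groups. The genes listed with the keratins, EPCAM, VIM and CDH1, were apart between the groups, with EPCAM and CDH1 lower and VIM higher in shPAX6. The groups did not overlap for 26.7% of all tested features. EPCAM was at 11.6 ± 0.129 FPKM in shCON and 6.84 ± 0.204 in shPAX6 (SD, n = 3, limma adjusted p = 0.0537), VIM was at 1021 ± 71.3 and 1516 ± 193 (limma adjusted p = 0.143), and CDH1 was called lower in shPAX6, with a log2 fold change of -2.28 ± 0.34 SE (limma adjusted p = 0.0334, and 0.144 to 0.264 without any 1 of the shCON libraries or without shPAX6 library 3). Their relation to the members was not tested. Of 10 leukocyte markers, PTPRC, CD3E, CD2 and MS4A1 were at 0 in all 6 libraries. The summed leukocyte level, nearly all of it the lysosomal gene CD68, was 37.9 to 40.7 FPKM in shCON and 25.0 to 27.4 in shPAX6, and its part in the values of the members was not tested. The 4 endothelial markers summed to at most 0.129 FPKM. In bulk RNA, fewer cells that express a gene and less RNA per cell cannot be told apart.

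In DU145 cells, PAX6 knockdown went with lower CCL20 and with no single direction over the list. CCL20 fell to 0.465 of its control level and was the single member to pass the test, a call that was lost when some single libraries were left out. IL6 was lower and CXCL1 higher in every shPAX6 library than in every shCON library, without passing the adjustment, and the groups overlapped for CXCL2, CXCL3, CXCL5, CXCL8 and LIF. Of the 10 members, 8 had a mean of at least 0.5 FPKM and were tested, 3 with a positive and 5 with a negative log2 fold change. 1 of the 8 was called (CCL20), with 1.20% of all tested features called and 1.02% called lower in shPAX6. For 3 of the 8 the groups did not overlap (CXCL1, CCL20 and IL6), against 26.7% of all tested features. The median log2 fold change of the 8 was -0.12, the same to 2 decimals as that of all tested features.

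**Figure D2:**
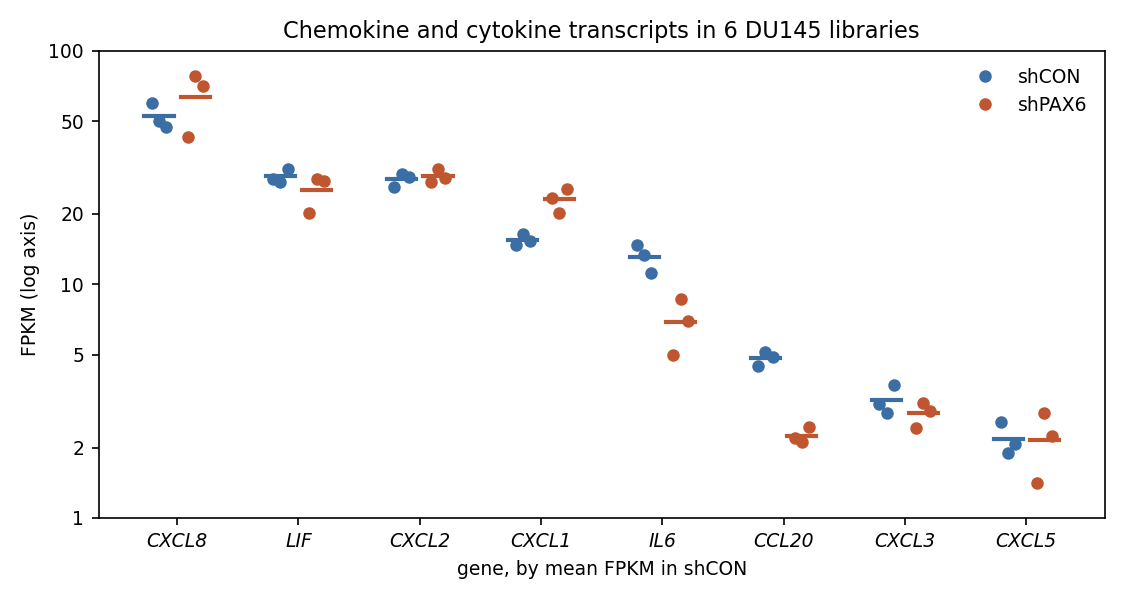
FPKM (log axis) of the 8 members with a mean of at least 0.5 FPKM in DU145 cells, ordered by the mean in shCON, with 1 point per library and a line at each group mean (n = 3). The groups separate for CCL20 and IL6, which are lower in shPAX6, and for CXCL1, which is higher, and CXCL8 has the highest mean in both groups.

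Among the ELR chemokines, CXCL8 was the most abundant. Its FPKM was 60.0, 50.2 and 47.3 in shCON and 42.9, 77.7 and 70.4 in shPAX6. The shPAX6 libraries thus lay on both sides of the controls, with library 1 the lowest and library 2 the highest of the 6 (log2 fold change 0.24 ± 0.23 SE, 95% interval -0.31 to 0.79, limma adjusted p = 0.653). CXCL1, first described as a growth factor of melanoma cells, was at 14.7, 16.4 and 15.4 FPKM in shCON and at 23.4, 20.3 and 25.6 in shPAX6. All 3 knockdown libraries lay above all 3 controls. The mean was 1.49 times that of the controls (log2 fold change 0.57 ± 0.14 SE, 95% interval 0.24 to 0.90), and limma's adjusted p of 0.102 did not pass. Without shPAX6 library 2 it passed, with limma's adjusted p = 0.0375, and leaving out any of the other 5 libraries gave 0.0538 to 0.445.

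CXCL2, the closest neighbour of CXCL1 in function, was at 26.0, 29.8 and 28.9 FPKM in shCON and at 27.5, 31.0 and 28.6 in shPAX6. These ranges overlapped almost fully, and the 95% interval of the log2 fold change ran from -0.25 to 0.34. CXCL3 was at 3.08, 2.81 and 3.71 FPKM in shCON and at 2.43, 3.10 and 2.87 in shPAX6, again with overlap (log2 fold change -0.19, 95% interval -0.66 to 0.29). CXCL5, which epithelial cells secrete on contact with IL-1 or TNF, was at 2.59, 1.90 and 2.07 FPKM in shCON. In shPAX6 it was at 1.40, 2.82 and 2.24, so that both the lowest and the highest value of the 6 came from knockdown libraries (log2 fold change -0.06, 95% interval -0.74 to 0.63). CXCL6, the remaining ELR chemokine of the cluster with a measurable level, was at 1.26 to 1.68 FPKM in shCON and at 1.48 to 1.71 in shPAX6.

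CCL20, the ligand of CCR6, showed the clearest separation. It was at 4.48, 5.14 and 4.88 FPKM in shCON and at 2.20, 2.11 and 2.44 in shPAX6. Each group was tight, and the lowest control was well above the highest knockdown library. The mean was 4.83 ± 0.328 FPKM in shCON and 2.25 ± 0.173 in shPAX6 (SD, n = 3), a log2 fold change of -1.07 ± 0.18 SE (95% interval -1.49 to -0.65, limma adjusted p = 0.0435). The call stood close to the threshold. Leaving out any 1 of the shCON libraries, or shPAX6 library 3, gave adjusted p-values by limma of 0.195 to 0.307, with a log2 fold change between -1.13 and -1.03, and after the GC correction the adjusted p was 0.0759.

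Of the gp130 cytokines, IL6 was at 14.7, 13.3 and 11.2 FPKM in shCON and at 5.00, 8.68 and 6.95 in shPAX6. All knockdown libraries lay below all controls, and the mean was 0.526 of the control mean. The log2 fold change was -0.94 ± 0.23 SE (95% interval -1.48 to -0.41), and the adjusted p by limma, 0.0958, did not pass. It passed after the GC correction, where the log2 fold change was -0.83 and the adjusted p by limma 0.0482, and also without shPAX6 library 1 (0.0417) or library 2 (0.0259), while leaving out any of the other 4 libraries gave 0.277 to 0.371. LIF, a cytokine first known for holding mouse stem cells undifferentiated, was at 28.3, 27.5 and 31.2 FPKM in shCON and at 20.2, 28.2 and 27.7 in shPAX6. Here shPAX6 library 1 was the lowest and the other knockdown libraries lay within the control range. The log2 fold change was -0.20 (95% interval -0.59 to 0.18), and 0.09 after the GC correction.

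The IL-1 genes were nearly silent in DU145 cells. IL1B was listed at 0 in all 6 libraries. IL1A was listed at 0 in 5 libraries and at 0.085 FPKM in shPAX6 library 2. Neither reached the minimum mean for a test.

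**Figure D3:**
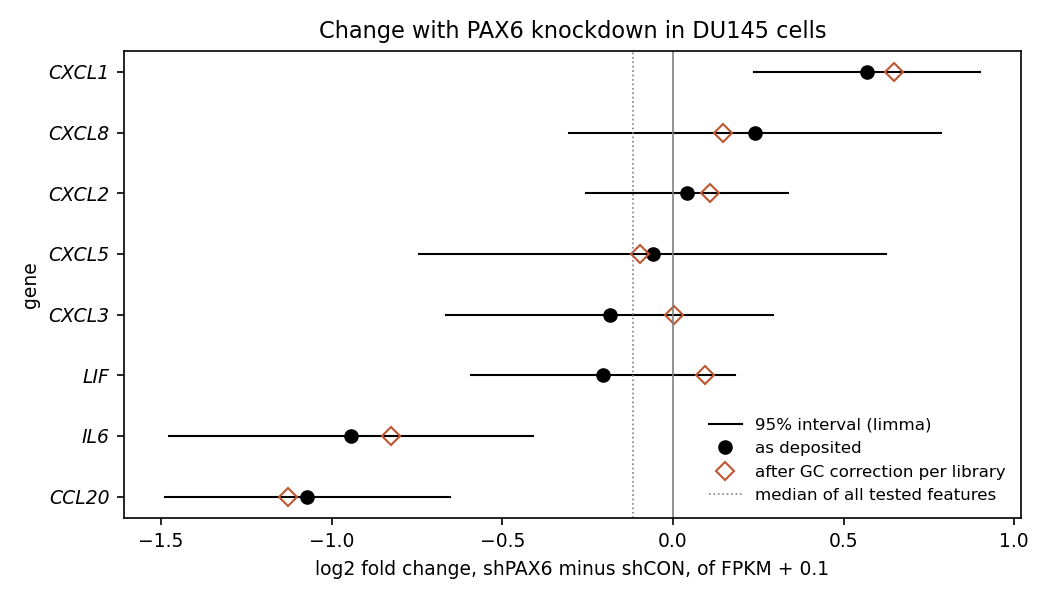
Log2 fold change (shPAX6 minus shCON, of FPKM + 0.1) of the 8 tested members, with black points and bars for the deposited values and their 95% interval from limma, and open diamonds for the values after a GC correction of each library. The intervals of CCL20 and IL6 lie below 0 and that of CXCL1 above 0, the other 5 include 0, and the dotted line marks the median of all tested features (-0.12).

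The order of the members by FPKM was similar in both groups, with a few exchanges. In shCON the order of the means was CXCL8, LIF, CXCL2, CXCL1, IL6, CCL20, CXCL3 and CXCL5, and the ranges of LIF and CXCL2 and of CXCL1 and IL6 overlapped, while the other neighbours did not. In shPAX6, CXCL1 (20.3 to 25.6 FPKM) and IL6 (5.00 to 8.68) no longer overlapped. CCL20 there came after CXCL3, and its range overlapped that of CXCL3 and that of CXCL5. CXCL8 did not overlap with the next member in either group, and it exceeded 93.3% of all features in mean shCON level. CXCL5 exceeded 57.3%.

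Ratios of members within a library do not depend on a scaling factor shared by all genes of that library. The trend with GC content need not cancel in them (35.5% GC in CCL20 and 45.4% in CXCL1). The 5 pairs shown were chosen after the values had been seen, so they carry no test. The ratio of CXCL1 to CXCL2 was 0.565, 0.551 and 0.532 in shCON and 0.850, 0.653 and 0.897 in shPAX6. CXCL1 to CXCL3 was at 4.14 to 5.83 in shCON and at 6.54 to 9.62 in shPAX6. Thus CXCL1 took a larger part beside either of its copies in each knockdown library. CCL20 to CXCL1 was the steadiest ratio, at 0.306, 0.313 and 0.318 in shCON and at 0.0942, 0.104 and 0.0952 in shPAX6. IL6 to LIF had a mean of 0.455 ± 0.0846 in shCON and 0.269 ± 0.0337 in shPAX6 (SD, n = 3), and CCL20 to CXCL8 of 0.0934 ± 0.0161 and 0.0377 ± 0.0124. None of the 5 pairs overlapped between the groups, but each held CXCL1, IL6 or CCL20, whose own groups did not overlap. The lack of overlap is therefore part of the choice of pairs and not a result.

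**Figure D4:**
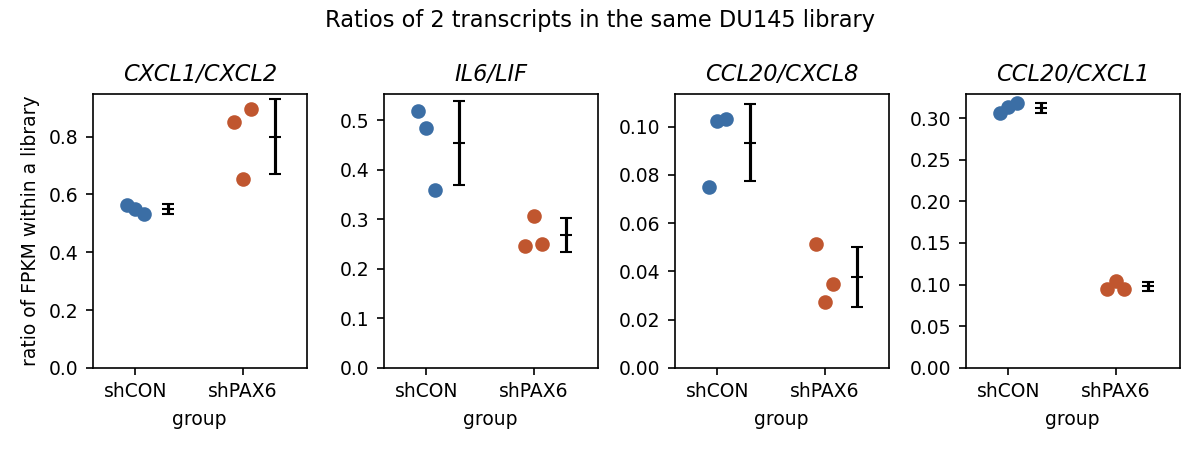
Ratio of the FPKM of 2 members within each DU145 library, for 4 pairs chosen after the values were seen, with 1 point per library and black bars for the mean and SD of each group (n = 3). CXCL1 over CXCL2 is higher and the other ratios are lower in all 3 shPAX6 libraries than in all 3 shCON libraries.

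The knockdown libraries differed among themselves for the members much as for all features. The lowest value of the 6 libraries fell in shPAX6 library 1 for 5 of the 8 tested members (CXCL3, CXCL5, CXCL8, IL6 and LIF) and for 5 of the 6 tested receptors. The 5 of 8 are 62.5%, beside 48.9% over all tested features, and shPAX6 library 2 held the highest value for 3 of the 8 (37.5%), beside 31.5%. Without shPAX6 library 1 the median log2 fold change of the 8 members was 0.015, beside -0.038 for all tested features. Without shPAX6 library 2 it was -0.27, beside -0.19. The 5 features most like CXCL8 over the 6 DU145 libraries on the log2 scale were FRMD5, an unnamed assembled transcript, ERLEC1, UBE2N and SECISBP2, with Pearson r from 0.994 to 0.999. With only 6 libraries, 568 features had r above 0.9, so these values describe the libraries and carry no test.

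Of the receptors of these ligands, 0 passed the test by limma in DU145 cells, also at an unadjusted p under 0.05. CXCR1 and CXCR2, which bind the ELR chemokines, and the IL-1 decoy receptor IL1R2 were listed at 0 in all 6 libraries. CCR6, ACKR1 and the IL-1 antagonist IL1RN did not reach a mean of 0.5 FPKM. The tested 6 were IL6R, IL6ST, LIFR, OSMR, IL1R1 and IL1RAP, 2 with positive and 4 with negative log2 fold changes (median -0.28). IL6R, the IL-6 binding chain, was at 3.74 to 4.47 FPKM in shCON and at 1.59, 3.68 and 2.99 in shPAX6, below all controls (log2 fold change -0.64 ± 0.31 SE, limma adjusted p = 0.333). IL6ST, the shared signalling chain gp130, was at 6.10 to 8.72 FPKM in shCON and at 4.27, 15.9 and 7.40 in shPAX6. OSMR, the receptor chain for oncostatin M, was the most abundant, at 53.1 to 68.9 FPKM in shCON and at 23.9, 62.8 and 37.6 in shPAX6. It passed without shPAX6 library 2 (log2 fold change -1.03, limma adjusted p = 0.0336). Without shPAX6 library 1 the log2 fold change of OSMR was -0.34 (limma adjusted p = 0.341). Leaving out any other single library gave adjusted p-values by limma of 0.534 to 0.714. LIFR, which pairs with gp130 for LIF, had a log2 fold change of 0.45 ± 0.30 SE, IL1R1 of -0.22 ± 0.43 and IL1RAP of -0.33 ± 0.50.

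The remaining gene lists around the members were described by counts. Of 23 other chemokines, 3 were tested (CXCL6, CXCL16 and CCL28) and 0 were called. Of 26 other cytokines, 11 were tested, 5 with positive and 6 with negative log2 fold changes, and 0 were called by limma after adjustment, with 5 at an unadjusted p under 0.05. Over all 13574 tested features, 2480 had an unadjusted p under 0.05 by limma. Among 23 features of NF-κB factors and their feedback genes, 21 were tested, 16 with a negative log2 fold change and a median of -0.19, beside -0.12 for all tested features. A negative log2 fold change was held by 62.9% of all tested features. 9 of the 21 lay below all controls, with 20.0% of all tested features below all controls, and 1 was called. This was BCL3, a nuclear IκB protein that works with the p50 and p52 subunits, which was at 28.7, 33.8 and 34.4 FPKM in shCON and at 18.3, 12.0 and 14.5 in shPAX6 (log2 fold change -1.12 ± 0.18 SE, limma adjusted p = 0.0402). Without any 1 of the shCON libraries or without shPAX6 library 3, limma's adjusted p was 0.185 to 0.294 for BCL3. Of 14 IL-1 and Toll-like receptor signalling genes 10 were tested, 9 with a negative log2 fold change, and 0 were called (1 at an unadjusted p under 0.05). All 13 genes of AU-rich mRNA decay were tested with 0 calls (3 at an unadjusted p under 0.05), and of 6 C/EBP factors 5 were tested with 0 calls (2 at an unadjusted p under 0.05).

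In LNCaP cells the question was how the same genes differed between LNCaP-ENZ and parental cells. CXCL8 and CCL20, the members with the most counts, were lower in LNCaP-ENZ, and IL6 had no counts in either library. Of the 7 measurable members, 6 had a negative log2 ratio, beside 62.7% of all measurable genes. The intervals of LIF and CXCL5 included 0, and CXCL5 turned positive with TMM factors (0.012) or with the median of expressed genes set to 0 (0.045). With 1 library per arm these differences have no replicate check and no test. The methods state more replicates per cell line than the labels give for LNCaP, and whether each library was pooled from several cultures is not given in the sources used here. Totals were 20468001 counts in the parental and 17945722 in the LNCaP-ENZ library, and counts were scaled by them to CPM, a count relative to the library total. Intervals cover counting error only. A small nuclear RNA, RN7SK, took 38.8% and 38.5% of the deposited TPM, and the tables of the cell lines were normalized separately, so no level was compared between LNCaP and DU145. The leukocyte markers PTPRC (23 and 28 counts), LYZ (17 and 21), CD3E (15 and 19) and CD2 (10 and 4) had a few counts, ITGAM had 1 and 14 (log2 ratio 2.56, 1.28 to 9.40), MS4A1 and CD79A had 0, and the 10 markers summed to 575 and 548 counts, mostly CD68. Of the endothelial markers VWF had 345 and 27 counts, while CDH5 and TEK were at 0. The part of other cells in the results was not tested.

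CXCL8 had 174 counts in parental and 39 in LNCaP-ENZ cells, which is 8.50 and 2.17 CPM. The log2 ratio of CPM + 0.1 was -1.92 (95% Clopper-Pearson interval -2.51 to -1.46), the widest gap among members with over 20 counts in the 2 libraries together. All intervals of LNCaP ratios were computed from raw counts without the 0.1, which moves the ratios of low counts towards 0. Without it, parental CPM of CXCL8 was 3.91 times that of LNCaP-ENZ. CCL20 had 605 and 257 counts, or 29.6 and 14.3 CPM, and a log2 ratio of -1.04 (-1.26 to -0.83). CXCL2 had 35 and 15 counts, with a log2 ratio of -0.95 (-2.01 to -0.12). Without the 0.1, its parental CPM was 2.05 times that of LNCaP-ENZ. For these 3 genes the interval lay below 0 with counts scaled by library totals. The upper limit of CXCL2 lay above the median log2 ratio of all measurable genes (-0.19). With TMM factors the log2 ratio of CXCL2 was -0.82, and its interval was not computed on that scale.

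LIF had 128 and 99 counts, and the interval of its log2 ratio (-0.57 to 0.21) included 0. CXCL5 had 10 and 8 counts, with an interval from -1.68 to 1.36. CXCL3 had 5 counts in parental and 0 in LNCaP-ENZ cells, a bound of 1.46-fold lower when set against a floor of 3 counts. The upper limit of its interval was 0.32, so the interval included 0. IL1B had 4 and 11 counts, and was the single measurable member with more in LNCaP-ENZ, with an interval from -0.11 to 3.76. CXCL1 had 2 counts and 1 count, IL1A had 3 and 3, and IL6 had 0 in both libraries, where the floor of 3 counts stands for 0.147 and 0.167 CPM and the exact 95% Poisson upper limit for 0.180 and 0.206 CPM. These last 3 were too low for a ratio.

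**Figure D5:**
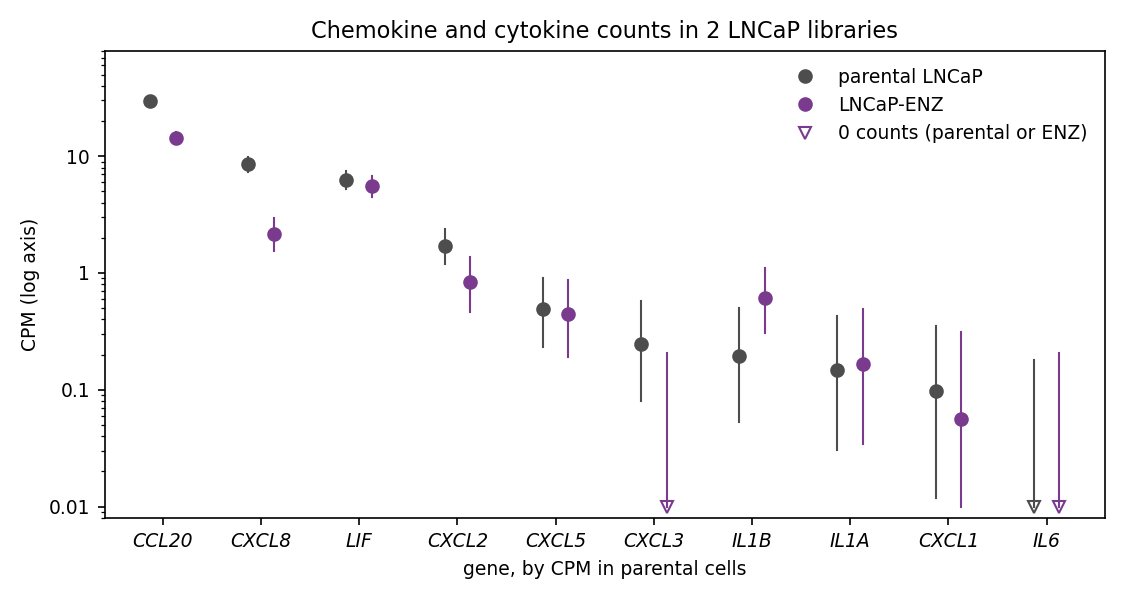
CPM (log axis) of the 10 members in the parental LNCaP and the LNCaP-ENZ library, ordered by the parental level, with bars for the exact 95% Poisson interval of the count, drawn down to 0.01 where they reach lower, and triangles for 0 counts. CCL20 and CXCL8 have the highest CPM in parental cells and both points are lower in LNCaP-ENZ with no overlap of the bars, while IL6 has 0 counts in both libraries.

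Of the 10 members, 7 had over 3 counts in at least 1 library. 3 of the 7 were past 2-fold lower in LNCaP-ENZ on this scale, CXCL8, CCL20 and CXCL3, with 16.6% of 21870 measurable genes past 2-fold lower. With CXCL3 at its bound it was 2 of the 7, beside 14.2% of all measurable genes treated alike. 1 of the 7, IL1B, was past 2-fold higher, with 5.97% of all measurable genes past 2-fold higher. The median log2 ratio of the 7 was -0.95 (-0.55 with CXCL3 at its bound), against -0.19 for all measurable genes (-0.19 with those at 0 in 1 library at their bound). With TMM factors the median of all measurable genes moved to -0.06 and the log2 ratio of CCL20 to -0.89, so CCL20 was no longer past 2-fold, while CXCL8 stayed at -1.78.

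By TPM, a value per gene length, the order within LNCaP cells was unlike that within DU145 cells. CCL20 came first in parental cells with 36.6 TPM, above 96.5% of all genes, followed by CXCL8 with 5.20, LIF with 1.64 and CXCL2 with 1.48. In LNCaP-ENZ cells CCL20 was again first with 16.7 TPM, followed by LIF with 1.37, CXCL8 with 1.25 and CXCL2 with 0.682. CXCL1 was at 0.0856 and 0.046 TPM. With 1 library each, neighbours in these orders cannot be set against a replicate spread.

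The receptors in LNCaP cells included both higher and lower counts. IL6R had 2352 and 2055 counts, a log2 ratio of -0.01 (-0.09 to 0.08). The signalling chains IL6ST (706 and 281 counts) and LIFR (721 and 286) had log2 ratios of -1.13 (-1.34 to -0.94) and -1.14 (-1.35 to -0.95). IL1R1 (423 and 240 counts), IL1RAP (489 and 250) and the decoy IL1R2 (26 and 3) had log2 ratios of -0.62, -0.77 and -2.36. OSMR had 25 and 41 counts (0.85, 0.15 to 1.68) and the antagonist IL1RN 780 and 926 (0.44, 0.30 to 0.58). CXCR2 had 5 and 4 counts, and CXCR1, CCR6 and ACKR1 had 0. Of the 9 measurable receptors and decoys, 3 were past 2-fold lower, beside 16.6% of all measurable genes, and 0 past 2-fold higher. With TMM factors IL6ST (-0.99) and LIFR (-0.99) fell short of 2-fold, as they did with the median of expressed genes set to 0 (-0.98 and -0.99), and 1 of the 9, IL1R2, was left. With a pseudocount of 1 the log2 ratio of IL1R2 was -0.96.

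Of 23 other chemokines on the list, 7 were measurable in LNCaP cells, 6 with a positive log2 ratio (37.3% of all measurable genes). 4 were past 2-fold higher, beside 5.97% of all measurable genes, and 0 past 2-fold lower, with a median of 1.26. Of these 4, CX3CL1 had 0 and 5 counts, at least 1.90-fold higher against the floor, and CXCL10 had 4 and 11, with an interval from -0.11 to 3.76 (both named after their values were seen). With CX3CL1 at its bound, 3 were past 2-fold higher, beside 4.97% of all measurable genes treated alike, and the median was 0.93. The other chemokines and the members were not tested against each other. CCL2, which attracts monocytes, had 322 and 680 counts (log2 ratio 1.26, 1.07 to 1.46), and CCL8 had 58 and 139 (1.42, 1.00 to 1.92). CXCL16, a membrane-bound chemokine, had 1967 and 2399 counts. CCL28, a mucosal chemokine, had 627 and 312 counts (-0.81, -1.02 to -0.62). Among the other cytokines, 15 of 26 were measurable. Of the 15, 4 were past 2-fold higher and 3 past 2-fold lower, beside 5.97% and 16.6% of all measurable genes. Of these, IL11 (2 and 6 counts), IL18 (2 and 7), IL36G (6 and 1) and EBI3 (8 and 2) had few counts and intervals that included 0. They were named after their values were seen. IL32 had 656 and 1563 counts (1.44, 1.31 to 1.58) and TSLP, an epithelial alarm cytokine, 48 and 91 (1.08, 0.59 to 1.65). TNFSF10, the death ligand TRAIL, had 29 and 8 counts (-1.47, -3.01 to -0.50) and TNF 100 and 48 (-0.85, -1.40 to -0.36).

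In the NF-κB list, 21 of 22 genes were measurable in LNCaP cells, 10 with a positive and 11 with a negative log2 ratio (median -0.05). NFKBIA, the feedback inhibitor IκBα, had 2782 and 3778 counts (0.63, 0.56 to 0.70), and NFKB1 had 943 and 1223 (0.56, 0.44 to 0.69). BIRC3, an inhibitor of apoptosis and NF-κB target, had 235 and 78 counts (-1.38, -1.79 to -1.03), and REL had 540 and 267 (-0.82, -1.04 to -0.61). Of the IL-1 and Toll-like receptor signalling genes 11 of 14 were measurable, with TLR2 (23 and 64 counts) and IRAK2 (178 and 279) at the highest log2 ratios and TAB2 (2093 and 616) and MAP3K7 (131 and 69) at the lowest among those with at least 20 counts together. Of the AU-rich decay genes, all 13 were measurable and 1, TIA1 (393 and 171 counts), was past 2-fold lower, beside 16.6% of all measurable genes. TIA1 was only just past it (log2 ratio -1.003, -1.28 to -0.75), and its interval ran to both sides of 2-fold. MAPKAPK2, the kinase that inactivates tristetraprolin, had 2481 and 3309 counts, HNRNPD 2784 and 3515, and RC3H2 1152 and 610. The C/EBP factors CEBPD (463 and 531 counts), CEBPA (601 and 626), CEBPG (466 and 312) and DDIT3 (316 and 181) stayed within 2-fold. Of the 6 C/EBP factors, all measurable, 1 was past 2-fold lower, beside 16.6% of all measurable genes. This was CEBPE (4 and 0 counts, named after its values were seen), with a bound of 1.17-fold lower against the floor and an interval that included 0.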

How the data were processed

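RNA-seq of 8 libraries was used. According to the methods, the authors used HISAT2 for alignment to GRCh37 and StringTie for quantification, and versions are not given in the sources used here. The LNCaP table deposited by the authors holds raw counts of each gene and TPM, which equal counts over gene length rescaled to the library. For DU145 the deposited values carry no named unit and were treated as FPKM; they are not counts, so no count test was run. Depth of the DU145 libraries is unknown. The number of columns of other samples was 0. The labels describe another library kit than the methods. Column names match sample labels, which gave the groups.

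DU145 values were tested with limma 3.58.1 (lmFit, eBayes with trend; R 4.3.3) as log2(FPKM + 0.1) in features whose mean reached 0.5 FPKM, two-sided, with Benjamini-Hochberg adjustment over all 13574 features and a threshold of 0.05. This scale understates changes of low genes. LNCaP counts were scaled by library totals, compared as log2 ratios of CPM + 0.1 with 95% Clopper-Pearson intervals (scipy 1.17.1), with a floor of 3 counts. The intervals were computed from raw counts and library totals, without the 0.1. A gene was measurable if it had over 3 counts in at least 1 library. The steps were tested on simulated data. Promoters were aligned pairwise with Biopython 1.88. GC content and 3′ UTRs came from the annotation lifted to GRCh37 and promoters from RefSeq on GRCh38.p14. The GC correction used a loess per library (span 0.5, degree 2).

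Named are all 10 members, all receptors, PAX6, the 5 features most like the most abundant member, and from the other lists those called in DU145 and the 2 largest log2 ratios in each direction in LNCaP with at least 20 counts in the 2 libraries together. CXCL6, CXCL16, CCL28 and the cell type markers are named beside their lists. Some markers of the lists are not reported here. The members and lists were chosen with earlier results of these data known. Alternatives were pseudocounts, filters, normalizations, array weights, the GC correction, the replicate block, libraries left out in turn, TMM factors (edgeR 4.0.16), TPM and totals without the 10 most counted genes.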

Additional observations from a re-analysis of the deposited data

How the results depend on the processing

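In DU145, the 163 calls over all tested features became 236 with a pseudocount of 1 or with quantile normalization (139 with 0.01), 108 without a filter, 100 after median centring, 4569 with array weights, 0 with the replicate block and 7 with the replicate block and GC correction, and ranged from 0 to 924 without single libraries. Members called, 1 at first, became 0 without a filter, after quantile normalization, after median centring, with the replicate block and with the block plus GC correction, 4 with array weights, and 0 to 3 without single libraries. After the GC correction the 1 called member was IL6 in place of CCL20. The replicate numbers did not pair the libraries (correlations -0.17, -0.37 and 0.052, and 0 of 3 correlated best with their own number). Signs of the log2 fold change turned for CXCL2 (-0.0158 to 0.0825 without single libraries), CXCL3 (0.0206 quantile, 0.00217 GC, with and without the block), CXCL5 (0.146 quantile, 0.116 median centring, 0.0485 array weights, -0.273 to 0.206 without single libraries), LIF (0.0942 GC, with and without the block), IL6ST (-0.0056 array weights, -0.444 to 0.492 without single libraries), IL1R1 (0.00426 array weights, -0.541 to 0.194) and IL1RAP (-0.813 to 0.257). CCL20, IL6, CXCL1 and CXCL8 kept their sign in all 17 alternatives, and CCL20 passed in 7, IL6 in 4, CXCL1 in 2 and CXCL8 in 1. In LNCaP, the 4930 genes and 4 members past 2-fold became 1118 and 1 with a pseudocount of 1, and 1684 and 2 at a mean of at least 1 CPM, where fewer genes are kept. They became 5804 and 5 with a pseudocount of 0.01 and 4472 and 5 with the deposited TPM, where CXCL2 was added. With TMM factors they were 4546 and 3, and with the median of expressed genes set to 0 they were 4419 and 3. Without the 10 most counted genes in the totals they were 5125 and 4. The cause of the other changes was not tested. With 3 libraries per group and 1 per LNCaP arm, small differences were not detectable.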
